A study of Mus musculus with 9 samples.

Results

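The first hour of light after a week of darkness was examined in the mouse dLGN (dorsal lateral geniculate nucleus), the thalamic nucleus that relays signals from the retina to the visual cortex. The comparison takes 6 of the 9 libraries of the study, chosen by their labelled light time: 3 libraries from mice taken at 0 h, still dark-adapted, and 3 from mice taken after 1 h of light. All mice were C57BL/6J wild type, of both sexes and aged P27, and all of them, the 0 h mice included, had been dark-reared from P20. Per the labels, each time stands for 3 mice handled as separate samples, and the dLGN was cut out of coronal brain slices under a microscope, so each library is a mixture of all cell types of the dissected piece. Total RNA was depleted of ribosomal RNA and sequenced. The tables of this comparison hold 20011 genes, of which 15164 had enough counts to be tested.

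When a neuron is driven strongly, calcium entry and the cAMP and MAP kinase pathways act on transcription factors that are already present, such as CREB and SRF, and these switch on immediate early genes within minutes. Many of these genes encode further transcription factors: the FOS and JUN proteins that pair as AP-1, the zinc finger EGR proteins, the neuronal factor NPAS4 and the orphan nuclear receptors of the NR4A family. Others encode brakes on the same pathways, among them the dual-specificity phosphatases that switch MAP kinases off. In the visual system, light after dark-rearing is a standard way to start this response at a known time.

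Replicates 1 to 3 had total counts of 5.73, 18.4 and 15.2 M in darkness, and of 8.77, 17.0 and 17.7 M after light. Levels are given as CPM, counts scaled to a common library size with TMM factors, and 3 counts, the floor used here for detection, correspond to between 0.162 and 0.515 CPM. Slc17a6, the vesicular glutamate transporter of thalamic relay cells, stood between 417 and 539 CPM in all 6 libraries, and the summed level of 12 relay cell markers spanned 5765 to 6048 CPM at 0 h and 5765 to 6467 CPM at 1 h. Markers of neighbouring tissue differed more: Neurod6, made by excitatory neurons of cortex and hippocampus, was highest in 0 h replicate 2 (18.3 CPM) and 1 h replicate 1 (13.9 CPM), with 0.229 to 0.735 CPM in the others. The summed GABA neuron markers ran from 185 CPM (0 h replicate 2) to 509 CPM (0 h replicate 1). Xist, expressed from the inactive X chromosome of females, stood at 0.334 CPM in 0 h replicate 3 and at 380 to 521 CPM elsewhere, while the Y-linked gene Ddx3y was detected in every library, from 15.4 to 60.6 CPM. RNA of both kinds was thus present in 5 of the 6 libraries, which RNA of 1 female or 1 male mouse alone would not give. How both kinds came into a library was not tested.

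The AP-1 family contained the 2 genes that passed the test over all genes, both higher at 1 h (adjusted p under 0.05 in edgeR's quasi-likelihood test with Benjamini-Hochberg adjustment, 0.0132% of the genes tested). Fosl2, which encodes the FOS-related protein FRA2, stood at 5.84, 5.98 and 6.21 CPM in the 0 h libraries and at 15.6, 14.3 and 13.1 CPM in the 1 h libraries. The 3 libraries of each group lay close together, and the groups did not overlap. The gene has 4 annotated exons over 21.4 kb of chromosome 5. Its mean rose from 6.01 CPM ± 0.190 to 14.3 CPM ± 1.202 (SD over 3 libraries in each case). On the log2 scale the fold change was 1.24 with an SE of 0.13 (adjusted p = 0.0224, edgeR). Fosb, which encodes another FOS protein and, by alternative splicing, the long-lived ΔFOSB, has 4 annotated exons over 7.54 kb of chromosome 7. It stood at 0.515, 0.646 and 0.868 CPM at 0 h and at 9.26, 10.9 and 4.11 CPM at 1 h. The 0 h values rest on 3, 12 and 13 counts, and the 1 h values on 81, 185 and 72, so its fold change is measured against few reads in darkness. The lowest 1 h library, replicate 3, was 6.08 times the 0 h mean, against 13.7 and 16.2 times in replicates 1 and 2. The log2 fold change of Fosb was 3.49 ± 0.41 (SE, adjusted p = 0.0427, edgeR), the largest of all 15164 tested genes. Both calls were lost when any 1 of 5 libraries was left out (each except 1 h replicate 3), when Xist was a covariate, when the replicate number was a block, and without 0 h replicate 2 and 1 h replicate 1 together. The call of Fosb was also lost with limma-voom, with the newer quasi-likelihood fit and with a filter of 1 CPM in 3 libraries. Fosl2 was called in 10 and Fosb in 7 of 18 settings, with the sizes of change between 1.17 and 1.30 for Fosl2 and between 3.18 and 3.82 for Fosb on the log2 scale over all settings tried.

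The other AP-1 genes did not pass, although several lay clear of darkness in most libraries. Fos itself, the founding member of the family, stood at 13.4, 6.51 and 21.8 CPM at 0 h and at 67.4, 64.9 and 35.03 CPM at 1 h. No 1 h library reached down to a 0 h library, but the spread at 0 h was more than 3-fold between replicates 2 and 3, and the log2 fold change was 2.01 ± 0.37 (SE, adjusted p = 0.259, edgeR). Atf3, a stress- and activity-induced partner of JUN proteins, was near the floor in darkness, at 0.515, 0.377 and 0.334 CPM, and at 1.72, 1.89 and 0.686 CPM at 1 h. Junb, a JUN protein made early after stimulation, stood at 6.18, 6.41 and 8.02 CPM at 0 h and at 14.8, 16.8 and 7.71 CPM at 1 h. Here 1 h replicate 3 lay inside the range of darkness, while replicates 1 and 2 lay above it, and without replicate 3 Junb passed the test with a log2 fold change of 1.19. Jun, which is inducible in many cells, stood at 135, 115 and 113 CPM at 0 h and at 138, 139 and 114 CPM at 1 h, with a log2 fold change of 0.11 ± 0.10 (SE), and Jdp2, an AP-1 repressor, had one of 0.07 ± 0.09 (SE). The groups of both genes overlapped.

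Of the 12 AP-1 genes listed, 11 were in the tables and 8 were tested, with Batf, Batf2 and Batf3 too low and Fosl1 not analysed here. Of these 8, 2 passed with a higher level, 6 did not pass and none passed with a lower level. The median log2 fold change of the 8 was 1.07, beside 0.0028 over all tested genes, and the groups of 4 did not overlap with 1 h the higher, beside 4.32% of all tested genes. Levels per length differed widely between the members in darkness: Jund, a constitutive JUN protein, stood at 227 TPM, Jun at 133 TPM and Jdp2 at 55.5 TPM at 0 h, against 22.5 TPM for Fos, 12.9 TPM for Junb, 3.57 TPM for Fosl2, 0.725 TPM for Atf3 and 0.588 TPM for Fosb. At 1 h, Fos stood at 90.9 TPM, still below Jun at 139 TPM, and Fosl2 and Fosb stood at 8.34 and 6.96 TPM. The order of Jund, Jun and Fos was the same at both times.

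**Figure D1:**
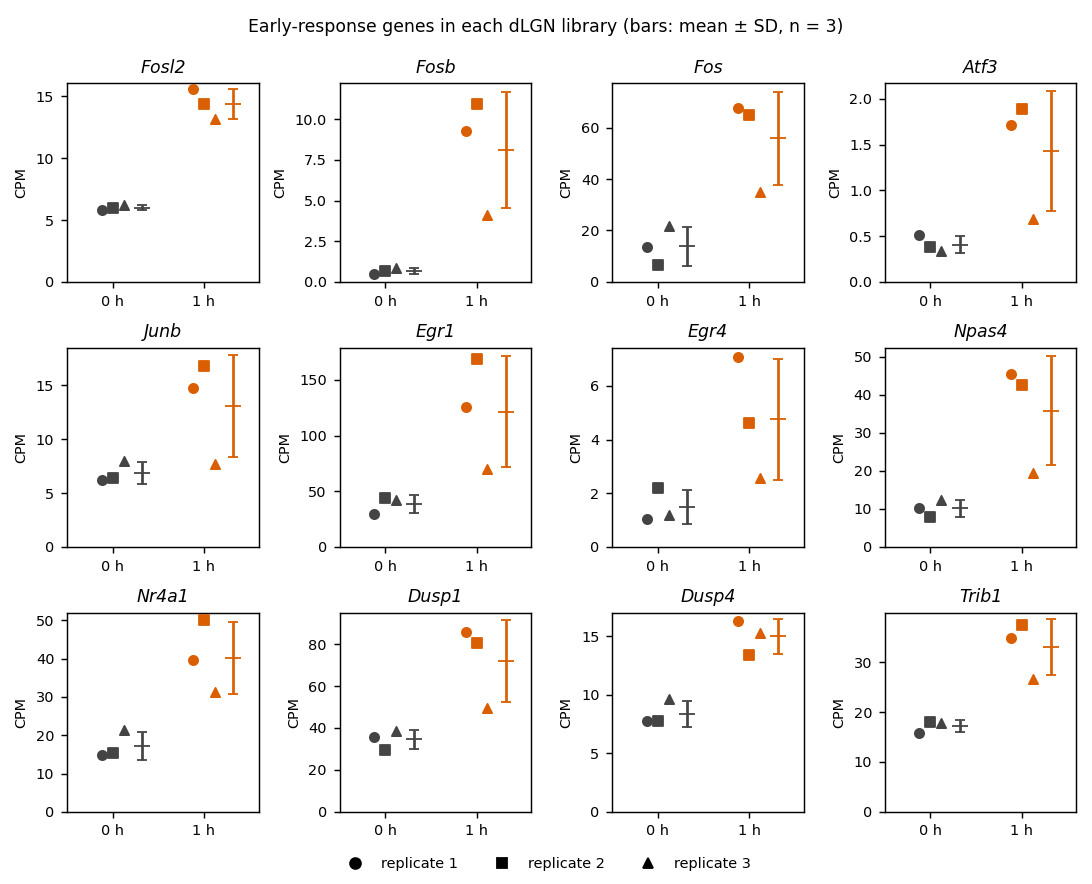
CPM (vertical axes, from 0) of 12 early-response genes in each library, with 0 h in grey and 1 h in orange, replicates told apart by symbol, and bars giving the mean ± SD of 3 libraries. In 11 of the 12 panels every 1 h library lies above every 0 h library, Junb being the exception, and the triangle of 1 h replicate 3 is the lowest orange symbol in 11 panels, Dusp4 being the exception.

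Sequence around the transcription start is shown for the 2 called genes and for Fos, so that the letters of 2 sites known from early genes can be seen in place: TGACG, the core of the cAMP response element bound by CREB, and GCGNGGGCG, the site bound by EGR proteins. Each window runs from 250 bases before to 50 bases after the RefSeq start on GRCm38.p6, 5′ to 3′ along the gene's strand, and capitals mark either site, also when it reads on the opposite strand (CGTCA for the first). The windows are chr5:32136222-32136521 on the plus strand for Fosl2, chr7:19309996-19310295 on the minus strand for Fosb and chr12:85473640-85473939 on the plus strand for Fos.
Fosl2: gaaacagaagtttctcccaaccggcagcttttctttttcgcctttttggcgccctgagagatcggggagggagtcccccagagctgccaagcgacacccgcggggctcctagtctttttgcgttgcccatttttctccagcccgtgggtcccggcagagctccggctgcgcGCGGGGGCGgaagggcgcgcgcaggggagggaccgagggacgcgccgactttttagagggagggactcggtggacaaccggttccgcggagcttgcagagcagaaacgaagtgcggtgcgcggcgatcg
Fosb: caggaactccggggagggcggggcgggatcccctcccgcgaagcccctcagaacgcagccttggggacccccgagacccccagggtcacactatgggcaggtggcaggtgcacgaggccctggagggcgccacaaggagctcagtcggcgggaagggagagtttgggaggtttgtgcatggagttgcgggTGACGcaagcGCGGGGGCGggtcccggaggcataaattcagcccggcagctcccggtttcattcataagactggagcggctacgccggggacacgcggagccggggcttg
Fos: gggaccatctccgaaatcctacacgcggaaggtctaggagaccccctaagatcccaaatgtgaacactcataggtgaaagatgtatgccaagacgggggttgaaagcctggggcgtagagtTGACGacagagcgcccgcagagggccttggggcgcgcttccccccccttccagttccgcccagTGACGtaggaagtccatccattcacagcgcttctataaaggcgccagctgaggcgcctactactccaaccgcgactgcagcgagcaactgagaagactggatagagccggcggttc
The Fosl2 window held 1 EGR site, from -79 to -71 counted from the start, and no TGACG. The Fosb window held 1 of each, TGACG from -60 to -56 and the EGR site from -50 to -42, and the Fos window held TGACG at -129 to -125 and at -66 to -62, upstream of a TATAAA at -33 to -28. These are matches of letters, not measured binding.

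Among the EGR genes and the NAB corepressors that bind EGR proteins, 5 of 6 listed genes were tested and none passed. All 5 had a log2 fold change above 0 (50.9% of all tested genes did), with a median of 0.92, and the groups of 3 did not overlap with 1 h the higher (4.32% of all tested genes). Egr1, an activity-induced factor of many brain regions, stood at 29.7, 44.0 and 42.1 CPM at 0 h and at 125, 169 and 69.7 CPM at 1 h. Every 1 h library lay above the darkness range, replicate 3 by the least, and the log2 fold change was 1.62 ± 0.27 (SE, adjusted p = 0.224, edgeR). Egr4 gave a like picture at lower level, with 1.03, 2.21 and 1.202 CPM at 0 h, 7.09, 4.61 and 2.57 CPM at 1 h and a log2 fold change of 1.53 ± 0.40 (SE). Nab1 differed little but evenly, from 40.3, 40.1 and 38.6 CPM to 47.4, 44.6 and 46.0 CPM, a log2 fold change of 0.21 ± 0.07 (SE). Nab2, which is itself an EGR target in many cells, had overlapping groups and a log2 fold change of 0.35 ± 0.29 (SE). Egr2 had between 0 and 3 counts per library and was not tested.

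Egr3 stood apart from its relatives by its scatter in darkness, at 1.54, 13.3 and 2.81 CPM at 0 h and 19.4, 13.6 and 5.94 CPM at 1 h. The value of 0 h replicate 2 lay above that of 1 h replicate 3, and the log2 fold change of 0.92 ± 0.59 (SE) became 2.40 without 0 h replicate 2 and 2.03 without both 0 h replicate 2 and 1 h replicate 1. Nr4a3 had 0 h replicate 2 and 1 h replicate 1 as its 2 highest libraries, with 7.55, 23.8 and 8.88 CPM at 0 h and 41.1, 17.5 and 14.2 CPM at 1 h. Its log2 fold change of 0.73 ± 0.45 (SE) was 1.48 without 0 h replicate 2, 0.16 without 1 h replicate 1 and 0.92 without both. These 2 libraries were also the ones with the most Neurod6, and 5 of the 9 tested cortical and hippocampal markers had them as their top pair, against 7.94% of all tested genes. Of the 79 tested members of the lists of early factors and early genes, 7 had this top pair (8.86%), near the share of all genes. The AP-1 list and the EGR and NAB list had 0, and of 17 tested secreted effectors of activity 3 had it (17.6%). Among the early genes with this pair on top were Bdnf, a neurotrophin induced by activity, at 2.23, 4.95 and 3.07 CPM at 0 h and 6.52, 1.36 and 3.26 CPM at 1 h, and Ptgs2, the inducible cyclooxygenase, at 0.687, 4.58 and 0.802 CPM and then 3.09, 0.827 and 0.629 CPM. Bdnf, Ptgs2 and Neurod6 are named because of these values, and the part of cortical or hippocampal RNA in them was not tested.

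**Figure D2:**
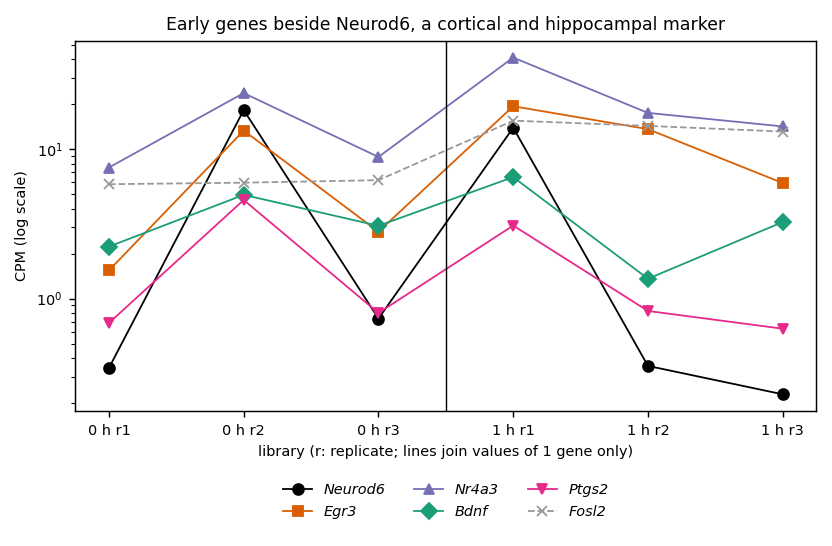
CPM on a log scale (vertical axis) of Neurod6, of the early genes Egr3, Nr4a3, Bdnf and Ptgs2, and of Fosl2, in each of the 6 libraries, with a vertical line between 0 h and 1 h. Neurod6, Nr4a3, Bdnf and Ptgs2 peak in 0 h replicate 2 and 1 h replicate 1, whereas Fosl2 is level within each group, between 5.84 and 6.21 CPM and between 13.1 and 15.6 CPM.

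NPAS4, a factor made almost only in neurons and in response to calcium entry, and NR4A1, a nuclear receptor without a known activating hormone, also separated the groups. Npas4 stood at 10.1, 7.97 and 12.3 CPM at 0 h and at 45.4, 42.7 and 19.4 CPM at 1 h (log2 fold change 1.81 ± 0.30 SE, adjusted p = 0.224, edgeR). Nr4a1 stood at 14.9, 15.3 and 21.4 CPM and then at 39.5, 50.01 and 31.2 CPM (log2 fold change 1.21 ± 0.18 SE, adjusted p = 0.165, edgeR). For both, all 1 h libraries lay above all 0 h libraries, 0 h replicate 3 was the highest in darkness and 1 h replicate 3 the lowest after light. The third receptor, Nr4a2, was at or below 2.97 CPM throughout and had overlapping groups, with a log2 fold change of -0.31 ± 0.35 (SE).

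The start windows of Npas4 (chr19:4989922-4990221, minus strand) and Nr4a1 (chr15:101266596-101266895, plus strand) are printed in the same way, because both hold TGACG more than once. The RefSeq starts used lie 11958 and 12633 bases inside the gene bounds of the deposited tables, so each window belongs to a start inside those bounds.
Npas4: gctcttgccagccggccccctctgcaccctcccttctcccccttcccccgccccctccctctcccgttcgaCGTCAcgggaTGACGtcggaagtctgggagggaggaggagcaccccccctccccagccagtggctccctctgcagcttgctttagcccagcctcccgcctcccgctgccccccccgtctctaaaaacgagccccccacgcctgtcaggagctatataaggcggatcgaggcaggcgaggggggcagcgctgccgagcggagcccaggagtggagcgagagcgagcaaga
Nr4a1: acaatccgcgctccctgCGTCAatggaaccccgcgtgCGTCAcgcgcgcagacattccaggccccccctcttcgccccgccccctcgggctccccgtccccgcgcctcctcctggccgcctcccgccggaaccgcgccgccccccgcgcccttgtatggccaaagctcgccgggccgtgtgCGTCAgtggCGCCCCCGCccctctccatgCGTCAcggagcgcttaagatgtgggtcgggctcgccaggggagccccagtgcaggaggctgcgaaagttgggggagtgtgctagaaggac
The Npas4 window held 2 copies of TGACG, on opposite strands at -179 to -175 and -169 to -165. The Nr4a1 window held 4, all reading on the opposite strand between -233 and -36, and an EGR site at -60 to -52.

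Read across these 3 families, the values at 1 h were uneven between the libraries. Of the 17 tested AP-1, EGR, NAB, NPAS4 and NR4A genes, 14 had their lowest 1 h value in replicate 3, which was the lowest of the 3 for 33.6% of all tested genes. Relative to the mean of darkness, replicate 3 held Npas4 at 1.91-fold, Egr1 at 1.80-fold, Nr4a1 at 1.81-fold and Fos at 2.52-fold, where replicate 1 held them at 4.48-, 3.25-, 2.29- and 4.85-fold. Fosl2, also lowest in replicate 3, stood at 2.59-, 2.39- and 2.19-fold in the 3 replicates. The count of called genes rested on this library: 9 genes passed without 1 h replicate 3, namely Fosb, Npas4, Egr1, Dusp1, Trib1, Fosl2, Nr4a1, Gadd45g and Junb. The same library had the lowest 1 h value of 10 of 12 tested GABA neuron markers and of 12 of 14 endothelial and mural markers. Whether these differences in cell make-up bear on the early genes was not tested.

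**Figure D3:**
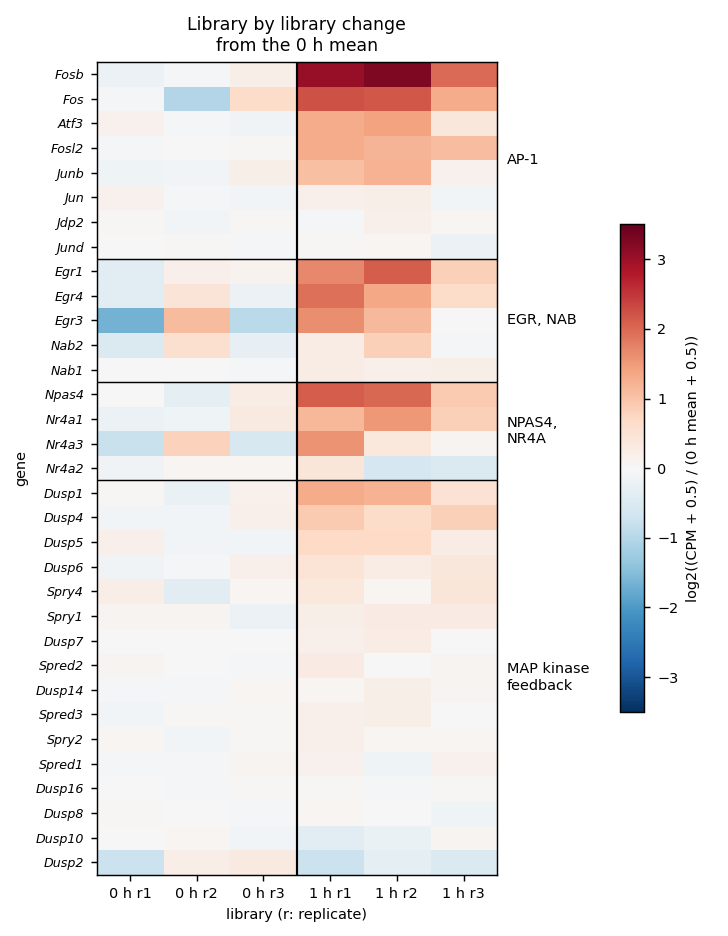
Change of each tested AP-1, EGR, NAB, NPAS4, NR4A and MAP kinase feedback gene (rows) in each library (columns) from its mean at 0 h, coloured as log2((CPM + 0.5) / (0 h mean + 0.5)), red for higher and blue for lower. The red block at 1 h is paler in replicate 3 for most transcription factors, and Egr3 and Nr4a3 also show red in 0 h replicate 2.

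Early genes of the MAP kinase pathway were next, and most of these encode its brakes. Of 16 tested feedback genes none passed, 13 had a log2 fold change above 0 (50.9% of all tested genes did), and the groups of 7 did not overlap with 1 h the higher (4.32% of all tested genes). Dusp1, a nuclear phosphatase that inactivates p38, JNK and ERK, stood at 35.5, 29.5 and 38.6 CPM at 0 h and at 85.8, 80.6 and 49.4 CPM at 1 h (log2 fold change 1.06 ± 0.19 SE, adjusted p = 0.259, edgeR). Dusp4, which also acts on nuclear MAP kinases, stood at 7.72, 7.75 and 9.62 CPM and then at 16.4, 13.4 and 15.3 CPM (0.83 ± 0.14 SE, adjusted p = 0.225). Unlike Dusp1, it was not lowest in 1 h replicate 3. The ERK phosphatases Dusp5 and Dusp6 had log2 fold changes of 0.61 ± 0.16 and 0.38 ± 0.10 (SE), and Spry1, an inhibitor of receptor tyrosine kinase signalling, one of 0.28 ± 0.12 (SE), each without overlap. Dusp2, at 0.343 to 1.27 CPM, went the other way with -0.98 ± 0.44 (SE) on few counts and with overlap. The Dusp1 start window (chr17:26508423-26508722, minus strand) is shown because it was the only one, among the 15 of the 20 genes described next that had a window, with the full palindrome TGACGTCA.
Dusp1: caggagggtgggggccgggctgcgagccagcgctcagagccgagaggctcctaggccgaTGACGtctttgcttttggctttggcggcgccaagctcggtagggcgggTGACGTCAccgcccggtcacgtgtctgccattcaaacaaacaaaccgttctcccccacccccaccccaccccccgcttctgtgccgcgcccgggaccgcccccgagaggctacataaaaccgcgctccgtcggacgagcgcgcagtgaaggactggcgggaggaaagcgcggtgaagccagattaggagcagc
The palindrome lies at -143 to -136, with a further TGACG at -191 to -187. Among the 11618 tested genes with a window, TGACG on either strand was present in 34.1% and TGACGTCA in 3.44%, and over all 32851 RefSeq windows in 20.8% and 1.79%.

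The 20 higher genes with the smallest p included other kinds of gene beside the transcription factors, but only Fosl2 and Fosb among the 20 passed. Trib1, a pseudokinase that recruits a ubiquitin ligase, stood at 15.8, 18.0 and 17.9 CPM at 0 h and 34.98, 37.5 and 26.7 CPM at 1 h (log2 fold change 0.92 ± 0.13 SE, adjusted p = 0.165, edgeR). Rgs16, which shortens signalling through G proteins, stood at 174, 171 and 166 CPM and then at 217, 233 and 246 CPM (0.45 ± 0.07 SE, adjusted p = 0.165). It was abundant in darkness at 255 TPM, and here 1 h replicate 3 was the highest library. Gadd45g, a stress-response protein that binds MAP kinase kinase kinases, stood at 8.24, 8.72 and 8.28 CPM and then at 16.4, 20.3 and 11.9 CPM (0.94 ± 0.18 SE, adjusted p = 0.398).

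Others among the 20, which did not pass, stood at moderate level in darkness with a small and even difference. Adamts15, a secreted protease of the extracellular matrix, stood at 139, 142 and 129 CPM at 0 h and 177, 171 and 187 CPM at 1 h, and Adrb1, the β1-adrenergic receptor, at 38.6, 33.7 and 36.3 CPM and then 48.1, 48.9 and 49.0 CPM. Arpp21, a cAMP-regulated phosphoprotein of neurons, stood at 158, 155 and 163 CPM and then 199, 210 and 194 CPM. Their log2 fold changes were 0.39, 0.44 and 0.34, each with an SE below 0.09, and 1 h replicate 3 was the highest of its group for Adamts15 and Adrb1 and the lowest for Arpp21. Adamts1, another matrix protease, differed more, at 17.2, 14.1 and 17.0 CPM and then 35.8, 25.03 and 22.1 CPM (0.78 ± 0.17 SE). The deubiquitinase gene Otud1, the actin-associated Palld and the cortactin-binding Cttnbp2 completed the 20 with log2 fold changes of 0.59, 0.47 and 0.33.

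Opn3, an opsin of the brain, had a log2 fold change of 0.57 ± 0.10 (SE), and Rnft1, a ring finger protein gene, one of 0.62 ± 0.11 (SE), both without overlap of the groups. Whether reads were counted by strand is not stated, so reads in shared bases cannot be assigned. Shared bases are given here and below between the first and last base of each gene, introns included. They are therefore not all exonic: Opn3, for instance, has 1839 exonic bases. Opn3 shares 6117 bases with Chml on the same strand, whose own log2 fold change was 0.09, and Rnft1 shares 139 bases with Rps6kb1 on the other strand, with 0.11. Arpp21 shares 2657 bases on its own strand with LOC102640027, which stood at 1.37 to 2.05 CPM at 0 h and 3.03 to 3.96 CPM at 1 h, so reads of the 2 cannot be told apart there.

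The span and the promoters of the 20 genes were described beside those of all tested genes. Their median span from first to last base was 10.8 kb with a median of 4.5 exons, against 22.9 kb and 9 exons over all tested genes, and 10 of the 20 spanned under 10 kb, beside 27.3% of all tested genes. Span ranged from 1.80 kb (Gadd45g) to 391 kb (Palld). Of 15 with a RefSeq start window, 9 held TGACG, beside 34.1% of the 11618 tested genes with a window, 3 held the EGR site beside 12.3%, 2 held the AP-1 site TGANTCA beside 6.06%, 4 held TATAAA beside 9.05%, and none held a CArG box, the SRF site, beside 1.55%. These shares describe small numbers and were not tested. At an FDR below 0.05, the authors' deposited table has 15 genes on the higher side (0.075% of 20011) and 0 on the lower (0.0%). All 15 are among these 20, and both rankings come from the same 6 libraries. The groups of all 20 did not overlap with 1 h the higher, beside 4.32% of all tested genes. Ranking by small p favours such genes, so neither count is separate evidence. The authors' deposited table gives Fosb a ratio of 11.3, Fos 4.03, Npas4 3.54, Egr1 3.13 and Fosl2 2.37.

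**Figure D4:**
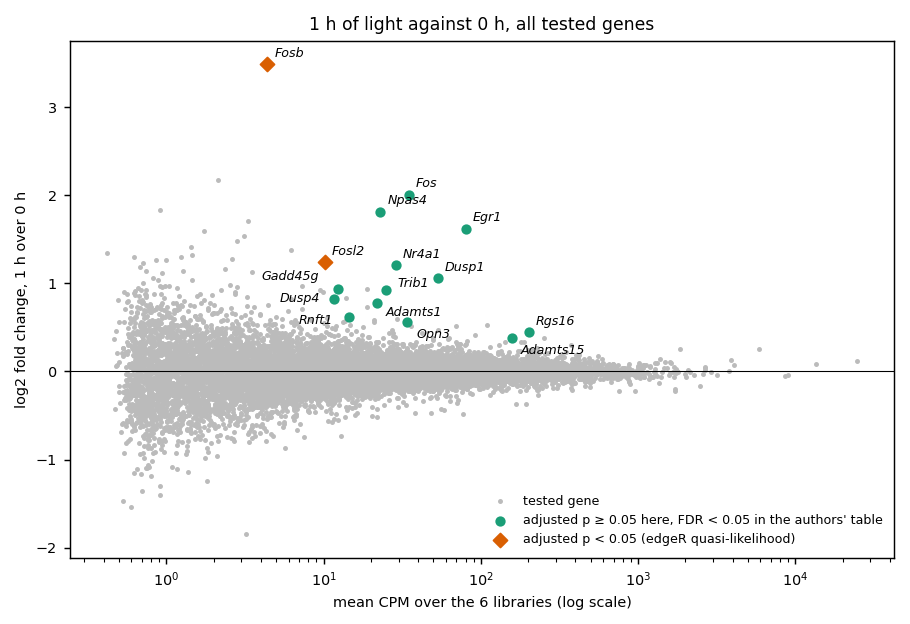
Log2 fold change of 1 h over 0 h (vertical axis) against the mean CPM of the 6 libraries (horizontal axis, log scale) for all 15164 tested genes, with the 2 genes of adjusted p under 0.05 as diamonds and the other genes of FDR under 0.05 in the authors' deposited table as green circles. The marked genes lie above 0, at levels from about that of Fosb to that of Rgs16. Their log2 fold changes run from 0.39 (Adamts15) to 3.49 (Fosb). Some unmarked genes, such as Gbx2 at 0.93, lie above the smaller ones.

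Other early transcription factors and cofactors were less separated: of 34 tested none passed, 28 had a log2 fold change above 0 (50.9% of all tested genes), the median was 0.21 and the groups of 7 did not overlap with 1 h the higher (4.32% of all tested genes). The circadian genes Per1 and Per2, which light and cAMP also induce in the clock nucleus of the hypothalamus, stood at 86.3, 97.3 and 85.9 CPM and at 16.6, 18.6 and 15.6 CPM at 0 h. At 1 h they stood at 116, 162 and 111 CPM and at 21.3, 30.8 and 22.5 CPM, with log2 fold changes of 0.53 ± 0.13 and 0.56 ± 0.15 (SE). Both were highest in 1 h replicate 2. So were 14 of 19 tested early glucocorticoid targets, Per1 itself among them, against 35.8% of all tested genes. The part of the glucocorticoid pathway in these values was not tested. Klf4, a zinc finger factor, had a log2 fold change of 0.83 ± 0.20 (SE) without overlap, and its relative Klf2 one of 0.97 ± 0.28 (SE) with 1 h replicate 3 inside the darkness range. Nfkbiz, an atypical nuclear inhibitor of NF-κB, had 0.52 ± 0.17 (SE).

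Early genes of synapses and signalling included Trib1 and Arpp21, given above. Of 28 tested none passed, and 19 had a log2 fold change above 0 (50.9% of all tested genes did), with a median of 0.12. The groups of 8 did not overlap with 1 h the higher (4.32% of all tested genes), and those of 1 with 1 h the lower (4.33%). Arc, whose protein removes AMPA receptors from synapses and which responds quickly in cortex and hippocampus, stood at 34.2, 25.9 and 24.0 CPM at 0 h and at 33.7, 24.3 and 17.7 CPM at 1 h. The groups overlapped, and the log2 fold change was -0.15 ± 0.21 (SE), or 0.06 without 1 h replicate 3. Homer1, a postsynaptic scaffold with a short activity-induced form that gene counts cannot resolve, had 0.21 ± 0.12 (SE), and the groups overlapped. Rgs2, another regulator of G protein signalling, had 0.42 ± 0.13, Errfi1, a brake on the EGF receptor, 0.30 ± 0.09, and the small GTPase gene Rnd3 0.32 ± 0.09 (SE), each without overlap.

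Secreted effectors of activity, the usual late targets of the early factors, stood near the background where tested. Of 23 with values 17 were tested and none passed, 8 had a log2 fold change above 0 (50.9% of all tested genes) and the median was -0.01. The untested were low in counts. Among them Crh had 0, 3 and 1 counts at 0 h and 5, 7 and 43 at 1 h, and Timp1 0, 0 and 0 and then 2, 5 and 4. The groups of the other untested members overlapped. Igf1, a growth factor, was the gene of smallest p, at 19.9, 20.9 and 28.7 CPM at 0 h and 35.2, 27.04 and 43.9 CPM at 1 h, with 1 h replicate 2 below 0 h replicate 3. The neuropeptide genes Vgf and Scg2 had log2 fold changes of 0.15 ± 0.08 and 0.21 ± 0.13 (SE). Adcyap1, which encodes the neuropeptide PACAP, had 1.13 ± 0.47 (SE), carried by 8.97 CPM in 1 h replicate 3 against 1.202 to 3.43 CPM in the other 5 libraries.

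The cAMP and CREB feedback genes, among which Nr4a1 and Rgs2 were also counted, held 17 tested members, of which none passed. A log2 fold change above 0 was found in 12 (50.9% of all tested genes), and the groups of 5 did not overlap with 1 h the higher (4.32% of all tested genes). Sik1, a kinase that restrains CREB coactivators, stood at 12.7, 10.02 and 13.1 CPM at 0 h and 17.0, 16 and 16.1 CPM at 1 h, and Crem, whose short form represses CREB targets, at 8.07, 8.83 and 10.6 CPM and then 13.5, 11.9 and 12.2 CPM. In both genes every 1 h library lay above every 0 h library, with log2 fold changes of 0.47 ± 0.13 and 0.43 ± 0.14 (SE).

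Fn14, the cytokine receptor named in the title of the series and encoded by Tnfrsf12a, stood at 4.29, 5.49 and 6.41 CPM at 0 h and at 8.92, 7.14 and 8.4 CPM at 1 h. All 1 h libraries lay above all 0 h libraries, and the log2 fold change of 0.55 ± 0.17 (SE) did not pass (adjusted p = 1.00, edgeR). Its ligand TWEAK, encoded by Tnfsf12, stood at 1.78 to 2.07 CPM and 2.11 to 2.77 CPM, a log2 fold change of 0.34 ± 0.24 (SE), and the read-through gene Tnfsf12Tnfsf13 overlaps 9859 bases of it in the same direction, so reads of the 2 cannot be told apart. Of the 18 tested Fn14 and NF-κB genes 9 had a log2 fold change above 0, the median was -0.0022, and the groups of 3 did not overlap with 1 h the higher (4.32% of all tested genes), the third being Nfkbia, an inhibitor and target of NF-κB, at 0.30 ± 0.14 (SE).

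**Figure D5:**
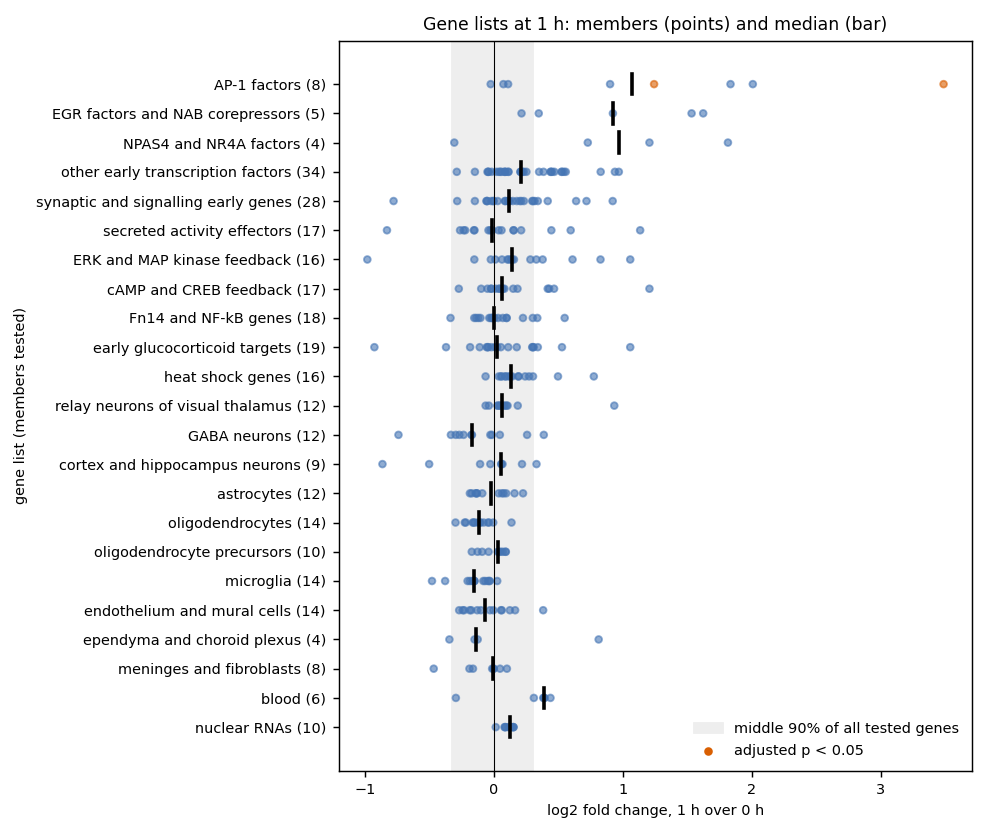
Log2 fold change of 1 h over 0 h (horizontal axis) of every tested member of 23 gene lists (points) with each list's median (black bar), the 2 called genes in orange and the middle 90% of all tested genes (-0.32 to 0.30) shaded. The AP-1, EGR and NAB, and NPAS4 and NR4A lists have medians of 1.07, 0.92 and 0.97, outside the shaded band, and of the other 20 lists the blood list has its median outside the band, at 0.38.

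No gene passed the test with a lower level at 1 h, 0 of 15164 (0.0%), which does not show that none fell. An unadjusted p under 0.05 (edgeR) was found for 198 genes in that direction (1.31%) against 288 higher (1.9%). DESeq2, limma-voom and edgeR's exact test also gave 0 lower genes. The 2 directions differed little in the number of genes whose groups did not overlap, 655 higher (4.32%) and 656 lower (4.33%), or 8.65% in either direction. With a further limit of 0.5 on the log2 scale these became 112 (0.739%) and 105 (0.692%), and with a limit of 1 they became 20 (0.132%) and 14 (0.0923%). Among the 10 lower genes of smallest p, Igfbp6, a binding protein for insulin-like growth factors, stood at 1.37, 1.45 and 1.202 CPM at 0 h and 0.343, 0.531 and 0.571 CPM at 1 h. These values rest on 3 to 27 counts per library, and the log2 fold change was -1.40 ± 0.34 (SE). Zan, at 3 to 23 counts per library, had -1.30 ± 0.35 (SE), and Cela1, at 15 to 49, had -0.79 ± 0.23 (SE).

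Mal, a lipid-raft protein of myelin, was the abundant gene of this set, at 1004, 1026 and 1046 CPM in darkness and 852, 902 and 889 CPM after light, with a log2 fold change of -0.22 ± 0.06 (SE). Hist1h1c, a linker histone, had -0.43 ± 0.12, Efna1, an ephrin ligand, -0.69 ± 0.20, Mcam, an adhesion protein of vessels, -0.33 ± 0.10, Arsg, a lysosomal sulfatase that shares 22742 bases with Slc16a6 on the other strand, -0.44 ± 0.13, Prelp, a matrix proteoglycan, -0.59 ± 0.18, and the long non-coding RNA 4933421O10Rik -0.42 ± 0.13 (SE). None of these passed.

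Markers of 4 glial types were also described. Of 12 tested astrocyte markers 6 had a log2 fold change above 0 with a median of -0.03, and of 10 tested markers of oligodendrocyte precursors 6 were above 0 with a median of 0.03. Of 14 tested oligodendrocyte markers 1 had a log2 fold change above 0 and the median was -0.12, and of 14 microglial markers 1 was above 0 with a median of -0.15. No member passed. The groups of 3 oligodendrocyte genes did not overlap with 1 h the lower, beside 4.33% of all tested genes: Mal, the myelin enzyme gene Cnp (-0.23 ± 0.08 SE) and Opalin (-0.30 ± 0.10 SE). The same held for the microglial genes P2ry13, Siglech and Cx3cr1, at -0.48 ± 0.17, -0.38 ± 0.16 and -0.15 ± 0.08 (SE). Cnp shares 8704 bases with Dnajc7 and P2ry13 shares 2991 bases with Med12l, each on the other strand. Summed over the lists, oligodendrocyte markers spanned 25660 to 27730 CPM at 0 h and 24060 to 26440 CPM at 1 h, which overlap, and microglial markers 355 to 384 CPM and 335 to 345 CPM, which do not. In dissected tissue, fewer cells of a type and less RNA per cell cannot be told apart.

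Some other signs of library make-up are given as they were measured. Of 6 tested blood genes 5 had a log2 fold change above 0 with a median of 0.38, and the summed blood markers spanned 102 to 166 CPM at 0 h and 158 to 175 CPM at 1 h. All 10 nuclear-retained RNAs tested lay above 0, with a median of 0.12 and sums of 19080 to 21010 CPM and 20510 to 21770 CPM. The sums of both lists overlapped between the groups. Of 16 tested heat shock genes, which respond to tissue handling, 15 lay above 0 (50.9% of all tested genes) with a median of 0.13. The groups of 4 did not overlap with 1 h the higher (4.32% of all tested genes). Among these 4, Dnajb1 and Hsph1 had log2 fold changes of 0.30 ± 0.08 and 0.27 ± 0.08 (SE). None of the members of these lists passed the test, and their part in the early gene values was not tested.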

How the data were processed

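RNA sequencing libraries of dLGN were compared, 3 at 0 h and 3 at 1 h of light. The labels call the mice of a time independent samples, but most libraries hold Xist and Y-linked RNA together. The p-values therefore measure the spread between libraries, which may not be that between single mice. Every test used the raw counts that the authors deposited for each gene and library. The deposited tables also hold a density, a signal the authors made from the counts, which was only checked against them, and a fold change (ratio) with a p-value and an FDR, quoted only as theirs. The submitters' processing notes name BWA, edgeR 3.14.0 and the build GRCm38 (mm10), and neither the read counter nor its strand setting is given in the sources here. The 1 h tables hold 20011 genes with at least 4 counts over the 6 libraries. All 25 symbols stored as dates were restored by Entrez number. Columns of the 8 h comparison were not used.

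Genes were tested with edgeR 4.0.16 in R 4.3.3 (glmQLFit and glmQLFTest with package defaults, TMM, filterByExpr, two-sided, Benjamini-Hochberg over 15164 genes, threshold 0.05). The SE of a log2 fold change was derived from its F statistic. CPM uses TMM-scaled library sizes, and TPM divides counts by the deposited exonic length. Floors of 3 counts cover counting error only. The test was checked on simulated counts. Alternatives were other scalings and filters, DESeq2 1.42.0, limma-voom (limma 3.58.1), edgeR's exact test, a replicate block, a Xist covariate and leaving out libraries; the newer quasi-likelihood option (legacy = FALSE) was added after seeing the data. Named genes are the called genes, the 20 higher and 10 lower of smallest p, those at FDR under 0.05 in the authors' deposited table, up to 8 by smallest p per activity list with relatives of called genes, up to 4 per marker list with defining markers, and genes overlapping these. Arc and the other genes outside that rule were chosen after their values were seen. Genes and lists were chosen with earlier results of these data known, and lists are described without a set test. Promoter windows are from RefSeq (GRCm38.p6), matched by Entrez number.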

Additional observations from a re-analysis of the deposited data

How the results depend on the processing

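The number of genes higher at 1 h was 2 (Fosl2 and Fosb) with TMM and stayed 2 with DESeq2's size factors, with upper quartile scaling and without a filter. It was 1 (Fosl2) with a filter of 1 CPM in 3 libraries, 1 with limma-voom, 1 with the newer quasi-likelihood fit, 14 with DESeq2 and 17 with edgeR's exact test. It was 0 with the Xist covariate and 0 without 0 h replicate 2 and 1 h replicate 1. Leaving out single libraries gave 0 to 9: 0 without any of the 3 libraries at 0 h or without 1 h replicate 1 or 2, and 9 without 1 h replicate 3. The number lower was 0 in every one of these settings. With the replicate block the number higher was 0 and lower 0. The labels give no pairing by replicate number, and whether the samples were paired was not tested. Correlations of same-numbered deviations from the group means were -0.12, -0.21 and 0.20, and 2 of 6 libraries correlated best with their own number. The fold change of Fosl2 ran from 1.17 to 1.30 and that of Fosb from 3.18 to 3.82 on the log2 scale, and they were called in 10 and 7 of 18 settings, with adjusted p up to 0.482. Of 86 genes followed over 17 alternatives, 1 changed direction in 1 setting. This was Arc, which ran from -0.39 to 0.061 as single libraries were left out and was above 0 without 1 h replicate 3. Not every gene named above was followed: Bdnf, Ptgs2, Neurod6 and Jund were not among the 86, so the count says nothing about their direction. The cause of these differences was not tested. Depth limits Fosb and Atf3 in darkness, with 3 counts each in the shallowest library, 0 h replicate 1.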
